A study of Homo sapiens with 4 samples.

Results

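The RAF-ERK pathway feedback and output genes are 10 genes whose transcripts are widely used as reports of ERK activity, namely *DUSP4*, *DUSP6*, *SPRY2*, *SPRY4*, *SPRED1*, *ETV4*, *ETV5*, *FOSL1*, *EGR1* and *PHLDA1*. They were chosen by name, and all 10 were found among the 28278 gene symbols of the deposited count table. RNA-seq was performed on 4 libraries of cells labelled HepG2, a human hepatocellular carcinoma line. Lentivirus carrying Cas9 with a control sgRNA gave the control cells (n = 2), and the same virus with an sgRNA against *USP22* gave the cells labelled sgUSP22 (n = 2). *USP22* encodes the deubiquitinase of the SAGA complex. According to the study's methods the cells were stably infected populations, so every library carries Cas9. All 4 libraries came from cells exposed for 24 h to Sorafenib at 10 µM, and no library without Sorafenib is analysed here, so the data show how these genes differed between 2 drug-treated cell populations and not how the drug changed them.

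In the RAS-RAF-MEK-ERK cascade, active RAS recruits RAF kinases, RAF phosphorylates MEK, and MEK phosphorylates ERK. Active ERK switches on immediate early genes such as *EGR1* through serum response factor (SRF) and its ETS-family partners, and it also switches on its own brakes, the DUSP phosphatases and the Sprouty and SPRED proteins. Sorafenib inhibits RAF kinases together with several receptor tyrosine kinases.

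The total counts per library ranged from 62030307 to 64728272, and 15150 genes with enough counts were tested. *USP22* itself gave 16450 and 16537 counts in control and 20279 and 20368 in the pair labelled sgUSP22 (log2 fold change 0.22 ± 0.034 SE, edgeR, adjusted p = 0.000394). Its transcript was thus not lower. The study assessed the knockout at the protein level, which is not analysed here, and every direction below follows the library labels. The defining markers of the labelled liver cell were absent or nearly so. All 16 hepatocyte markers had 20 counts or fewer in each library, 9 of them were listed at 0 in all 4, *ALB*, *APOA1*, *APOB* and *TTR* among them, and their summed level was between 0.197 and 0.685 CPM, the TMM-scaled counts of a gene relative to the library total. Of 5 epithelial markers, *KRT8* and *KRT18* were abundant, while *CDH1* and *KRT19* were listed at 0. The summed level of the 5 was 1756 and 1795 CPM in control libraries and 1373 and 1315 CPM in libraries labelled sgUSP22. The 6 mesenchymal markers summed to 1655 and 1651 CPM in control and 1475 and 1449 CPM in the libraries labelled sgUSP22, but they went both ways. *PDGFRB* and *ACTA2* were called lower (log2 fold changes -0.98 and -0.91, edgeR, adjusted p = 0.000211 and 0.000133), the abundant *VIM* had -0.39 and *COL3A1* 0.19 (edgeR, adjusted p = 0.0007), *COL1A1* did not pass the test (0.11, edgeR, adjusted p = 0.175), and *COL1A2* had 7 counts or fewer per library. The 4 endothelial and the 4 haematopoietic markers had 20 counts or fewer in each library. Whether these differences in marker level have a part in the results below was not tested.

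The members did not move as a block. *EGR1* rose 10.3-fold in the libraries labelled sgUSP22, *PHLDA1* fell 2.18-fold, and *FOSL1* fell 1.62-fold. *SPRED1* was 1.47-fold higher, just short of the 1.5-fold threshold. *DUSP4*, *SPRY4*, *ETV4* and *ETV5* were lower by between 1.16-fold and 1.24-fold, and *DUSP6* and *SPRY2* did not pass the test. In RNA from whole cultures, a change in each cell and a change in the share of cells that make a transcript cannot be told apart. A gene was called when its adjusted p in edgeR's quasi-likelihood test was below 0.05 and its fold change was at least 1.5. By this rule 1 of the 10 members was called higher and 2 were called lower, where 8.88% and 7.25% of all tested genes were. At an adjusted p below 0.05 alone, 2 members were higher and 6 were lower, against 26.8% and 25.8% of all tested genes. The 2 groups did not overlap in CPM for 2 members that were higher and 7 that were lower, and 38.3% and 37.6% of all tested genes were separated in this way. The median log2 fold change of the 10 members was -0.23, and that of all tested genes was 0.000913. With 10 genes these counts describe the members and were not set against other lists by a test.

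*EGR1*, *PHLDA1* and *SPRED1* are shown with their upstream sequence, since they made the largest moves among the members whose RefSeq promoter entry was used. Entries on GRCh38.p14 were used for 6 of the 10 members, in 8 windows, and all 8 were identical to the hg38 genome. The other 4 members were left out of the sequence search, which does not show that they lack such an entry. Each run is the 250 bases before the RefSeq start site, 5′ to 3′ on the strand of the gene. *EGR1* lies on the plus strand and its window is chr5:138465229-138465478. *PHLDA1* lies on the minus strand with the window chr12:76031777-76032026, and *SPRED1* lies on the plus strand with the window chr15:38252586-38252835. Capitals mark CArG boxes, the element bound by SRF.
EGR1: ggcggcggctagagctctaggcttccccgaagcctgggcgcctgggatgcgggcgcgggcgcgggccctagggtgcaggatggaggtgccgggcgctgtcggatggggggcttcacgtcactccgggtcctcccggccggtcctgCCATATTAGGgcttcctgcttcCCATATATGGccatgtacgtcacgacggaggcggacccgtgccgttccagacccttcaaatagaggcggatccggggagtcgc
PHLDA1: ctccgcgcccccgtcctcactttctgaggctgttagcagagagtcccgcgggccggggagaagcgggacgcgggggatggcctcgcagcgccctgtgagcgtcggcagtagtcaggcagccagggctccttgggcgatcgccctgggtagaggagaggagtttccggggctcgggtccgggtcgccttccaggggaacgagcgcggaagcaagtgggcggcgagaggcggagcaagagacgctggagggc
SPRED1: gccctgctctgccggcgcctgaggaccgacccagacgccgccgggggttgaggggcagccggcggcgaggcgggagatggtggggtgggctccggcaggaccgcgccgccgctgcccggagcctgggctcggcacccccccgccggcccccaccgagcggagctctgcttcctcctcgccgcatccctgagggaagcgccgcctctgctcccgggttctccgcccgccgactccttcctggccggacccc

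The *EGR1* window held 2 CArG boxes, CCATATTAGG from -105 to -96 and CCATATATGG from -83 to -74 relative to the start site. Among 35116 RefSeq windows of this length, 1.16% held at least 1 CArG box and 11 windows, or 0.0313%, held 2 or more. The windows were searched on both strands for 3 further motifs, each in 1 fixed form, and none of these forms was found in the windows of the 6 members. Shorter cores and variants of these sites were not searched for, so their absence is not shown. These were the cyclic AMP response element TGACGTCA, held by 1.65% of all windows, the AP-1 site TGANTCA, held by 6.57%, and the ETS site CCGGAAG, held by 8.52%. No CArG box was found in the windows of *DUSP6*, *SPRY2*, *SPRY4*, *SPRED1* and *PHLDA1*. These are matches of letters in a short window and carry no statement on binding.

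*EGR1* encodes a zinc finger transcription factor of the immediate early class. It lies on the plus strand of chromosome 5 of hg38 from 138465479 to 138469303. Control replicates 1 and 2 gave 1045 and 858 counts, against 10574 and 10215 in the 2 replicates labelled sgUSP22. The groups were far apart, and the gap exceeded the spread between replicates in either group. In CPM the level was 15.4 ± 2.39 (SD, n = 2) in control and 159.6 ± 1.89 (SD, n = 2) in the libraries labelled sgUSP22. The log2 fold change was 3.37 ± 0.081 (SE, 95% interval from 3.19 to 3.55, edgeR, adjusted p = 3.12e-09), and its p-value ranked 15 among the 15150 tested genes. Across the other settings tried it stayed between 3.22 and 3.54. The 4 nearest tested genes, 2 on either side, had log2 fold changes from -0.54 to 0.23, and none of them was called.

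*EGR1* made up a larger part of the member counts, not scaled by transcript length, in the libraries labelled sgUSP22. *EGR1* took 3.46% (95% Wilson interval from 3.26% to 3.68%) and 2.70% (2.53% to 2.88%) of the counts of the 10 members in the control libraries. It took 29.2% (28.7% to 29.7%) and 29.4% (28.9% to 29.9%) in the libraries labelled sgUSP22. These intervals cover counting error only. The other 9 members together summed to 477.5 and 495.8 CPM in control and to 390.2 and 379.8 CPM in the libraries labelled sgUSP22.

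**Figure D1:**
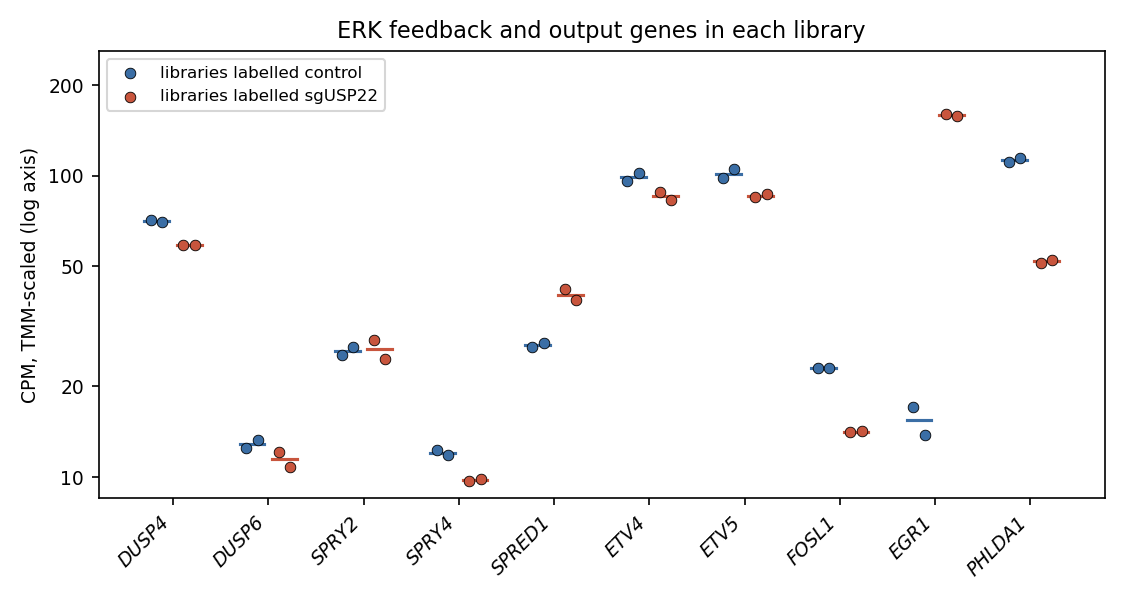
Level of each of the 10 genes in each library, in TMM-scaled CPM on a log axis. Each point is 1 library and each bar the mean of 2; *EGR1* stands at 13.8 and 17.1 CPM in control and at 158.3 and 160.9 CPM in libraries labelled sgUSP22, and *SPRY2* is the gene whose groups overlap.

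*PHLDA1* encodes a pleckstrin homology-like domain protein that is induced by growth factor signalling. It lies on the minus strand of chromosome 12 from 76025447 to 76031776. Control replicates 1 and 2 gave 6796 and 7172 counts, against 3370 and 3401 in the 2 replicates labelled sgUSP22. Both libraries labelled sgUSP22 stood far below both controls, and the groups did not overlap. In CPM the level fell from 113.2 ± 2.48 to 52.0 ± 0.990 (SD, n = 2 per group), with a log2 fold change of -1.12 ± 0.043 (SE, 95% interval from -1.22 to -1.03, edgeR, adjusted p = 6.06e-08). Across the other settings it stayed between -1.28 and -1.07. An antisense gene, *PHLDA1-AS1*, covers 9.35% of the exonic bases of *PHLDA1* on the opposite strand. The strand setting of the counting is not given in the sources used here, so reads of the pair cannot be told apart there. Of the 4 nearest tested genes, 1 was also called, *GLIPR1*, and the log2 fold changes of the 4 ranged from -1.04 to 0.13.

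*FOSL1* encodes FRA-1, a FOS-family subunit of the AP-1 transcription factor. It lies on the minus strand of chromosome 11 from 65892049 to 65900573. Control replicates 1 and 2 gave 1404 and 1433 counts, against 924 and 921 in the 2 replicates labelled sgUSP22. Replicates were close to each other in both groups, and the groups did not overlap. In CPM the level fell from 23.0 ± 0.0395 to 14.2 ± 0.146 (SD, n = 2 per group), with a log2 fold change of -0.70 ± 0.081 (SE, 95% interval from -0.88 to -0.52, edgeR, adjusted p = 6.5e-05). With trends of GC content and transcript length removed the log2 fold change was -0.50, past the adjusted p threshold and short of 1.5-fold. All 4 nearest tested genes had negative log2 fold changes, from -0.79 to -0.45, and *CCDC85B* was called. The part of this neighbourhood in the *FOSL1* value was not tested.

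*SPRED1* encodes a membrane-bound inhibitor that brings the RAS GTPase-activating protein NF1 to RAS. It lies on the plus strand of chromosome 15 from 38252836 to 38357249. Control replicates 1 and 2 gave 1649 and 1736 counts, against 2763 and 2491 in the 2 replicates labelled sgUSP22. Both libraries labelled sgUSP22 were above both controls. The level was 27.4 ± 0.554 (SD, n = 2) CPM in control and 40.3 ± 2.45 (SD, n = 2) CPM in the libraries labelled sgUSP22, with a log2 fold change of 0.56 ± 0.067 (SE, 95% interval from 0.41 to 0.71, edgeR, adjusted p = 8.28e-05). Its interval spans the 1.5-fold threshold. It was called higher with library size alone (0.61) and without sgUSP22 replicate 2 (0.62), and the value dropped to 0.23 with trends of GC content and length removed.

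The Sprouty genes *SPRY2* and *SPRY4* encode inhibitors that act between receptor tyrosine kinases and RAF. *SPRY2*, on the minus strand of chromosome 13 from 80335976 to 80341126, had 1554 and 1689 counts in control and 1878 and 1590 counts in the libraries labelled sgUSP22. The groups overlapped, and its log2 fold change of 0.02 had a 95% interval from -0.18 to 0.21 (edgeR, adjusted p = 0.882). *SPRY4*, on the minus strand of chromosome 5 from 142310427 to 142326455, had 750 and 738 counts in control and 636 and 634 counts in the libraries labelled sgUSP22. These groups did not overlap. The log2 fold change of *SPRY4* was -0.31 ± 0.10 (SE, edgeR, adjusted p = 0.0263), and in DESeq2 the adjusted p was 0.10. With any 1 library left out, *SPRY4* missed the threshold as well, with adjusted p from 0.0507 to 0.108 in edgeR. Whether *SPRY2* and *SPRY4* differed in their response was not tested.

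*DUSP4* and *DUSP6* encode dual-specificity phosphatases that remove phosphate from MAP kinases, *DUSP4* in the nucleus and *DUSP6*, selective for ERK, in the cytoplasm. *DUSP4*, on the minus strand of chromosome 8 from 29333064 to 29350684, had 4340 and 4383 counts in control and 3886 and 3816 counts in the libraries labelled sgUSP22. The replicates lay close together and the groups did not overlap, with a log2 fold change of -0.26 ± 0.044 (SE, edgeR, adjusted p = 0.000819). *DUSP6*, on the minus strand of chromosome 12 from 89347235 to 89352501, had 760 and 830 counts in control and 794 and 699 counts in the libraries labelled sgUSP22. Its raw counts overlapped, while its scaled levels, 12.5 and 13.3 CPM in control and 12.1 and 10.8 CPM in the libraries labelled sgUSP22, did not. The log2 fold change of *DUSP6* was -0.17 with a 95% interval from -0.40 to 0.06 (edgeR, adjusted p = 0.20). This interval reaches from a moderate fall to a value just above 0. An unnamed gene on the opposite strand covers 28.6% of the exonic bases of *DUSP6*, where reads of the pair cannot be told apart.

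*ETV4* and *ETV5* encode ETS transcription factors of the PEA3 group. *ETV4*, on the minus strand of chromosome 17 from 43527844 to 43579620, had 5866 and 6393 counts in control and 5802 and 5351 counts in the libraries labelled sgUSP22. *ETV5*, on the minus strand of chromosome 3 from 186046314 to 186110318, had 5995 and 6554 counts in control and 5587 and 5614 counts in the libraries labelled sgUSP22. For either gene the scaled groups did not overlap. The log2 fold change was -0.21 ± 0.049 for *ETV4* (SE, edgeR, adjusted p = 0.00441) and -0.24 ± 0.045 for *ETV5* (SE, edgeR, adjusted p = 0.00141). With trends of GC content and length removed, *ETV4* had -0.03 and no longer passed, while *ETV5* had -0.25. Exons of *DHX8*, on the opposite strand, cover 1.93% of the exonic bases of *ETV4*, and exons of *DGKG*, on the same strand, cover 2.84% of those of *ETV5*. The 3 genes with the pattern most like that of *ETV5*, the member with the highest mean CPM, were *CNNM3*, *XRRA1* and *BLOC1S1*. Their centred log2 CPM lay within 0.0069, 0.0084 and 0.0097 of that of *ETV5* in all 4 libraries, which is a small number of points.

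**Figure D2:**
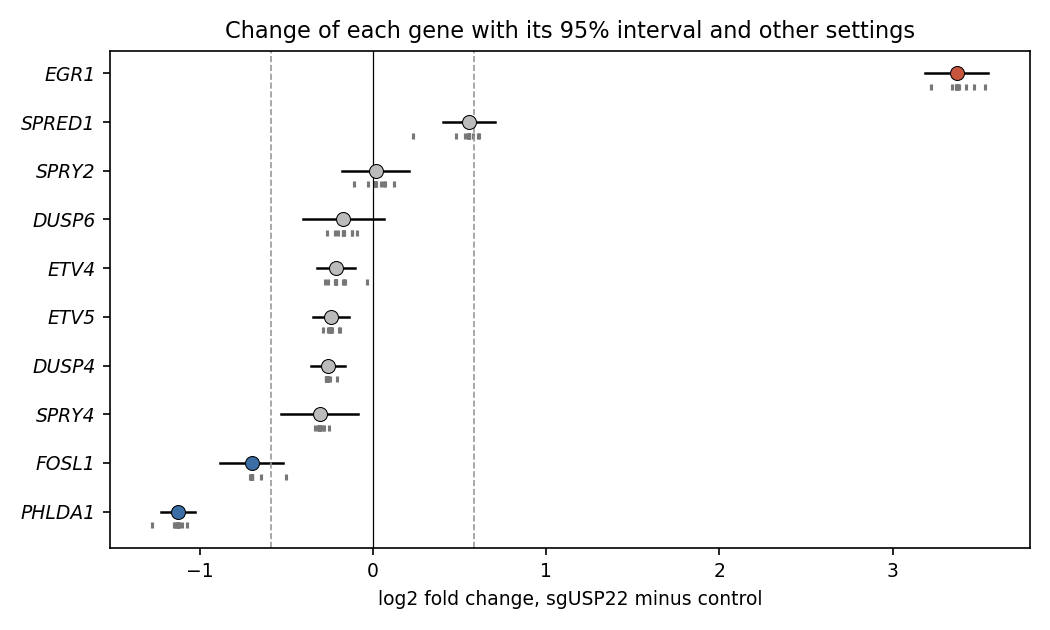
Log2 fold change of each gene (libraries labelled sgUSP22 minus control) with its 95% interval as a line. Red and blue points were called higher and lower, grey points were not called, small ticks under each gene give its value under the other settings, and dashed lines mark 1.5-fold. *EGR1* at 3.37 stands apart from the other 9 genes, which lie between -1.12 and 0.56.

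Levels of different genes can be set side by side only per length, here as mean CPM per kilobase of the GENCODE canonical transcript. In control libraries *ETV4* had the highest level (42.5 ± 1.90, SD, n = 2), followed by *ETV5* (24.9 ± 1.17), *PHLDA1* (19.1 ± 0.419), *FOSL1* (13.5 ± 0.0232), *DUSP4* (12.7 ± 0.117), *SPRY2* (11.5 ± 0.491), *EGR1* (4.92 ± 0.763), *SPRED1* (3.77 ± 0.0762), *DUSP6* (3.55 ± 0.164) and *SPRY4* (2.46 ± 0.0678). *SPRED1* and *DUSP6* differed by less than the sum of their SDs. In the libraries labelled sgUSP22, *EGR1* was the highest of the 10 at 50.9 ± 0.603 CPM per kilobase, above *ETV4* at 36.7 ± 1.64. *PHLDA1* (8.79 ± 0.167) then stood below *SPRY2* (11.6 ± 1.22) and *DUSP4* (10.6 ± 0.00297), and *SPRY2* and *DUSP4* differed by less than the SD of *SPRY2*. *ETV5* had 21.1 ± 0.337, *FOSL1* 8.32 ± 0.0855, *SPRED1* 5.55 ± 0.336 and *DUSP6* 3.16 ± 0.245, and the least abundant member was again *SPRY4* (1.99 ± 0.0206). The length of the canonical transcript may not be that of the form these cells make.

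The cascade itself was taken as 22 genes, encoding RAS, RAF, MEK, ERK and proteins around them. Of these, 2 were called higher and 1 lower, against 8.88% and 7.25% of all tested genes. At an adjusted p below 0.05 alone, 4 were higher and 7 were lower, against 26.8% and 25.8% of all tested genes. The other 11 did not pass, and the median log2 fold change of the list was -0.06. The 2 higher genes were the RAS guanine nucleotide exchange factors. *SOS1* had 44.3 ± 0.419 CPM in control and 73.9 ± 0.289 CPM in the libraries labelled sgUSP22 (SD, n = 2 per group), with a log2 fold change of 0.74 ± 0.046 (SE, edgeR, adjusted p = 1.23e-06), or 0.48 and not called with trends of GC content and length removed. *SOS2* had 15.8 and 17.7 CPM in control and 31.5 and 30.7 CPM in the libraries labelled sgUSP22, with a log2 fold change of 0.89 ± 0.082 (SE, edgeR, adjusted p = 1.37e-05). The gene called lower was *RPS6KA2*, which encodes the ERK-activated kinase RSK3 and was barely present, with a sum of 92 counts in control and 3 counts in the libraries labelled sgUSP22. This is a ratio of 0.0326 with an exact interval from 0.0066 to 0.0983 for counting error. The most abundant genes not called were *PTPN11*, a phosphatase that acts upstream of RAS (log2 fold change -0.07, edgeR, adjusted p = 0.121), and the adaptor gene *SHC1* (-0.17, edgeR, adjusted p = 0.00283). With trends of GC content and length removed, *PTPN11* had -0.25 and passed the adjusted p threshold (0.000162), while *SHC1* had -0.05 and did not (0.212).

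Among 18 genes listed as other brakes of the pathway, not all of them selective for ERK, 4 were called lower and 0 higher. The shares of all tested genes were 7.25% lower and 8.88% higher. At an adjusted p below 0.05 alone, 1 brake was higher and 6 were lower, against 26.8% and 25.8% of all tested genes. The median log2 fold change of the list was -0.06. *DUSP1*, an immediate early phosphatase of MAP kinases, fell from 1034 and 1046 CPM in control to 356.3 and 346.7 CPM, with a log2 fold change of -1.56 ± 0.032 (SE, edgeR, adjusted p = 1.26e-09). *DUSP5*, a nuclear phosphatase of ERK, fell from 147.6 and 146.1 CPM to 44.5 and 45.7 CPM, with a log2 fold change of -1.70 ± 0.041 (SE, edgeR, adjusted p = 3.12e-09). *ERRFI1*, an inhibitor of the EGF receptor, had a log2 fold change of -0.87 and *DUSP10*, a phosphatase of JNK and p38, of -0.82. The most abundant brakes not called were *PEBP1*, which encodes the RAF kinase inhibitor protein (-0.36, edgeR, adjusted p = 6.5e-05), and *NF1* (0.26, edgeR, adjusted p = 0.00116). With trends of GC content and length removed, *NF1* had -0.01 and no longer passed (edgeR, adjusted p = 0.83).

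The immediate early and ETS transcription factors went both ways. Of 17 listed genes 16 were tested, 2 were called higher and 2 lower. Calls over all tested genes also went both ways, with 8.88% higher and 7.25% lower. At an adjusted p below 0.05 alone, 6 of the list were higher and 5 lower, against 26.8% and 25.8% of all tested genes. *FOS*, like *EGR1* an immediate early gene, rose from 46.2 and 43.6 CPM in control to 84.5 and 84.9 CPM, with a log2 fold change of 0.92 ± 0.048 (SE, edgeR, adjusted p = 4.68e-07). *EGR2*, a paralog of *EGR1*, was listed at 0 in both control libraries and had 36 and 16 counts in the libraries labelled sgUSP22. The mean CPM of these 2 libraries was 8.18-fold above a floor of 3 counts per control library. This ratio leaves out the counting error of the 36 and 16 counts. *JUN*, the AP-1 partner of FOS proteins, fell from 72.3 and 70.6 CPM to 35.4 and 30.5 CPM, with a log2 fold change of -1.12 ± 0.069 (SE, edgeR, adjusted p = 1.15e-06). *ETV1*, the remaining PEA3 factor beside *ETV4* and *ETV5*, had a log2 fold change of -0.73 ± 0.082 (SE, edgeR, adjusted p = 5.54e-05). The most abundant genes not called were *MYC* (-0.23, edgeR, adjusted p = 0.000215) and *JUNB* (-0.01, edgeR, adjusted p = 0.86). With trends of GC content and length removed *JUNB* had 0.24, past the adjusted p threshold (edgeR, adjusted p = 0.000127) and short of 1.5-fold. With library size alone it had 0.04.

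Of the 14 other outputs and ligands, 13 were tested, 3 were called lower and 0 higher, against 7.25% and 8.88% of all tested genes. At an adjusted p below 0.05 alone, 1 was higher and 8 were lower, against 26.8% and 25.8% of all tested genes. The median log2 fold change of the list was -0.43. *EPHA2*, an ephrin receptor gene induced by ERK, had 293.4 and 302.4 CPM in control and 195.4 and 190.3 CPM in the libraries labelled sgUSP22 (log2 fold change -0.63 ± 0.036 SE, edgeR, adjusted p = 7.68e-07). The cytokine gene *LIF* had -0.59, and *HBEGF*, which encodes a ligand of the EGF receptor, had -0.64 with an adjusted p of 0.0339 in edgeR. *HBEGF* rested on 380 and 264 counts in control and 255 and 183 counts in the libraries labelled sgUSP22, and without control replicate 1 its value was -0.33 and no longer past the threshold, nor was it without sgUSP22 replicate 2 (-0.43). *HBEGF* also missed the threshold in DESeq2 (adjusted p = 0.0592), with no filter on low counts (0.122) and with trends of GC content and length removed (0.0551). The most abundant genes not called were the cyclin gene *CCND1* (-0.47, edgeR, adjusted p = 8.58e-06) and the urokinase receptor gene *PLAUR* (-0.46, edgeR, adjusted p = 6.43e-05). The calls of *EPHA2* and *LIF* were near 1.5-fold, and both were lost with library size alone and with trends of GC content and length removed. The call of *LIF* was lost as well without control replicate 2 (-0.56).

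**Figure D3:**
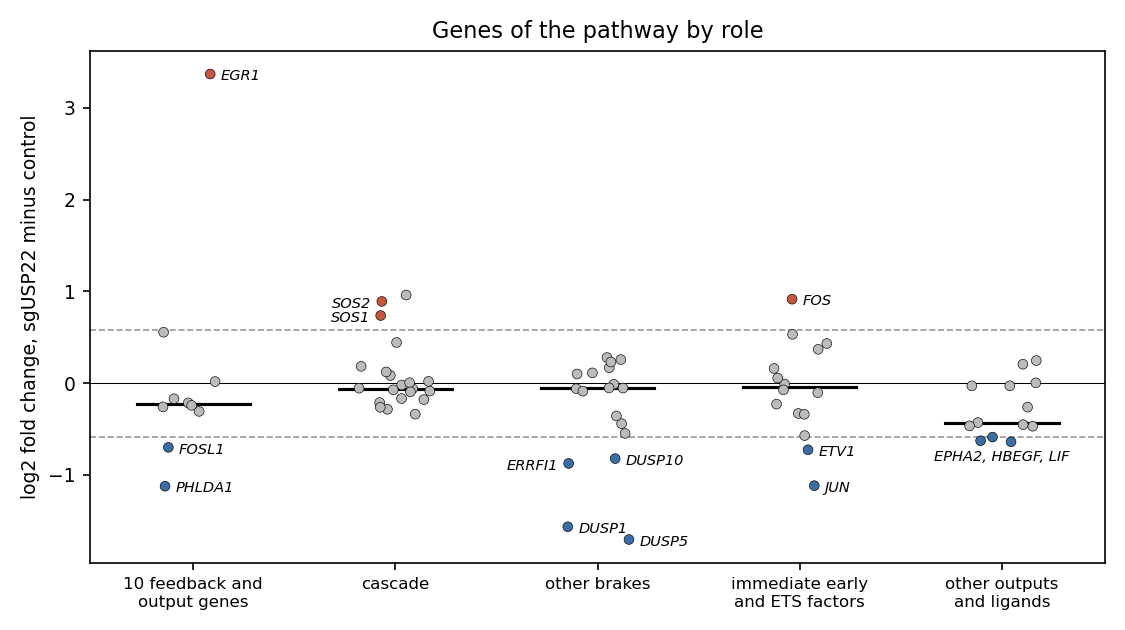
Log2 fold change (libraries labelled sgUSP22 minus control) of the tested genes of each list, 1 point a gene, spread sideways for legibility. Bars are list medians, red and blue points were called higher and lower, and dashed lines mark 1.5-fold. *EGR2* and *RPS6KA2*, with a group at 3 counts or fewer per library, are left out as points and kept in the medians; *EGR1* is the highest point and *DUSP5* the lowest.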

How the data were processed

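RNA-seq was measured in 4 libraries of Sorafenib-treated cells labelled HepG2. The authors aligned reads to hg38 with HISAT2 2.2.1 and deposited whole-number gene counts from StringTie 2.2.1, not scaled to library size. The annotation and strand setting are not given in the sources used here. Columns were assigned by name, and 0 were unassigned. Nothing says that replicates were separate cultures, so p-values measure the spread between these libraries, which may be technical. Replicates differed by more than sampling noise (mean chi-square per gene 7.91 in control and 8.44 in libraries labelled sgUSP22).

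The test was run across all 15150 genes kept, in edgeR 4.0.16 under R 4.3.3 (TMM factors, filterByExpr at its minimum count of 10, then glmQLFit and glmQLFTest), with Benjamini-Hochberg adjustment. CPM were scaled with TMM factors. The SE of a log2 fold change was taken as its size over the square root of F. The floor for a gene listed at 0 was set at 3 counts, from 0.0457 to 0.0492 TMM-scaled CPM by library, for counting error only. The alternatives were DESeq2 1.42.0, library size alone, RLE factors, a replicate block, no filter, a minimum mean of 50 counts, no fold threshold, leaving out each library, and removal of lowess trends (span 0.3) of GC content and transcript length. The 766 tested genes without an annotated length got no such correction. The test was checked on simulated counts for this comparison, with dispersions taken from these libraries. There edgeR recovered 199 of 200 changed genes and made 16 false calls. All changes put in were clearly larger than 1.5-fold and in genes above a minimum level. Calls near the fold threshold and genes with few counts were therefore not checked.

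Gene positions, lengths and overlaps are from GENCODE release 44 on hg38. Named beside the members are, per list, up to 4 called genes with the largest change and no overlap between groups, and the 2 most abundant genes not called. Neighbouring genes, *ACTG2* and *SRF* were named after their values were seen. The members and lists were chosen with earlier results of these data known.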

Additional observations from a re-analysis of the deposited data

How the results depend on the processing

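Of 110 comparisons of a member's log2 fold change with another setting, 101 had the same direction and were on the same side of the threshold of adjusted p, 7 lost significance and 2 changed sign. *SPRY4* no longer passed with library size alone (-0.26) or DESeq2 (-0.31), nor with any 1 library left out (-0.34 to -0.28). *ETV4* did not after the GC content and length correction (-0.033). *SPRY2*, not past the threshold in any setting, ranged from -0.11 to 0.12 with 1 library left out. With a library left out, the lone library of its group is assumed to vary like the others. The replicate numbers share only a number: the correlation between deviations of libraries with the same number was 0.042, and the replicate block changed no member's call, with 1341 genes called higher and 1100 lower against 1345 and 1098.

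Without the fold threshold, 2 members were higher and 6 lower, and of all tested genes 4057 and 3904. In the lists, in the same setting, 4 cascade genes were higher and 7 lower, 1 other brake was higher, 6 immediate early and ETS factors were higher and 5 lower, and 1 other output was higher and 8 lower. With library size alone 2 members were called higher and 1 other output lower. After the GC content and length correction 1 member was called lower, 1 cascade gene higher, 4 immediate early and ETS factors higher and 1 other output lower. With a mean of at least 50 counts, *RPS6KA2* and *EGR2* were not tested, which left 0 cascade genes lower and 1 factor higher. With 1 library left out, between 1 and 2 members were called higher.

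Of 240 comparisons of the named list genes, 228 kept direction and side. *HBEGF* lost significance in 5 settings and *SHC1* in 1, *PTPN11* gained it in 1, and the other 5 changed sign. *NF1* changed sign after the GC content and length correction (-0.013), as did *JUNB* there (0.24), with library size alone (0.043) and without 1 library, where it ranged from -0.050 to 0.032. After that correction *NF1* also lost significance (edgeR, adjusted p = 0.83), and *JUNB* gained it (edgeR, adjusted p = 0.000127). The cause was not tested, except for the genes that a filter removed. Depth limits the genes with low counts most.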

Other observations

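The CArG search was extended, after the *EGR1* window had been seen, to all genes with a RefSeq promoter window, as a description with no test. Of 163 tested genes with at least 1 CArG box, 14 were called higher, or 8.59%, and 17 lower, or 10.4%, with a median log2 fold change of -0.07. Of the 11359 tested genes with any window, 9.03% were called higher and 6.59% lower. Of the 8 tested genes with 2 or more boxes, *EGR1* was called higher and *ACTG2*, a smooth muscle actin gene, was called lower, with 492 and 509 counts in control and 301 and 291 counts in the libraries labelled sgUSP22 (log2 fold change -0.84 ± 0.126 SE, edgeR, adjusted p = 0.000346). *SRF* itself, which also has 2 or more boxes, had a log2 fold change of 0.06 (edgeR, adjusted p = 0.345). Calls among genes with a CArG box in this window went both ways, as did calls among genes with any window.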
